A study of Mus musculus with 13 samples.

Results

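At 381 gene starts in mouse embryonic fibroblasts (MEFs), SMAD3 was lower after 3 days of doxycycline (dox) than without it. They were chosen by the authors' deposited comparison of SMAD3 in cells with dox (Dox+) and without it (Dox-), as the sites whose group mean was lower in Dox+ and which were centered no more than 1000 bp from the start of a GENCODE transcript. That table lists 2080 sites, of which 904 had lower SMAD3 in Dox+, 381 of them at promoters and 523 further away, and 483 promoter sites had higher SMAD3 in Dox+. Of the 9355 promoter regions that could have been listed, 4.07% were listed as lower. Because the SMAD3 levels themselves chose the sites, the levels are given as a description and no test is made on them.

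SMAD3 is the transcription factor that TGF-β and activin receptors phosphorylate. It then enters the nucleus with SMAD4, and because it binds DNA weakly it reaches most of its sites through other transcription factors. In fibroblasts it is known for driving genes of collagen and other extracellular matrix, of the contractile cytoskeleton, and of the feedback inhibitors of its own pathway. OCT4, c-MYC, KLF4 and SOX2 (MKOS) are the factors that turn fibroblasts into pluripotent cells, a process in which mesenchymal genes are silenced early.

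All samples were MEFs with an MKOS cassette switched on by dox, infected with a retrovirus for constitutively active Smad3 (Smad3CA), and taken on day 3. SMAD3 was immunoprecipitated from cells given 1 µg/ml dox (n = 3) and from cells without dox (n = 3), OCT4 from Dox+ cells (n = 3), and input DNA was sequenced from each treatment (n = 2 each). The dose is that of the labels, and the study's methods give a lower dose for reprogramming cultures. Per the study's methods the cells for ChIP came from a mouse line of mixed genetic background that carries the MKOS cassette and a CAG-driven rtTA in the Sp3 locus and a GFP reporter in 1 allele of Nanog. All groups carried these alleles and Smad3CA, so endogenous SMAD3 and SMAD3CA cannot be told apart, and there was no group without SMAD3CA. Nothing in the labels says whether replicates were separate embryos or infections. The introduced genes themselves were not among the sites. Myc, Klf4, Sox2 and Smad3 had a tested promoter region with no listed change, and Pou5f1, which encodes OCT4, had no tested region.

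To show what lies under these sites, reference sequence at their centers was read for 6 protein-coding sites among the 15 with the largest differences. Each is the longest stretch outside annotated exons within 100 bp of the site center, from the plus strand of mm10, 5′ to 3′. Capitals mark matches, on either strand, to 17 short consensus motifs that are spelled out with the motif results.
Fstl3, chr10:79777398-79777561: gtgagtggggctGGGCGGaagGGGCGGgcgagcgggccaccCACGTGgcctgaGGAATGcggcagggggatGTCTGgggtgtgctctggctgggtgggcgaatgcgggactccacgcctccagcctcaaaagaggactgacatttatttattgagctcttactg
Agrn, chr4:156197489-156197643: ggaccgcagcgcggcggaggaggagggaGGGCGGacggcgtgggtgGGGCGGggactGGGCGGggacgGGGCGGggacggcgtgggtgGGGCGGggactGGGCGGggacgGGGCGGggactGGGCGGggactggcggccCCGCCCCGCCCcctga
Sgip1, chr4:102759731-102759930: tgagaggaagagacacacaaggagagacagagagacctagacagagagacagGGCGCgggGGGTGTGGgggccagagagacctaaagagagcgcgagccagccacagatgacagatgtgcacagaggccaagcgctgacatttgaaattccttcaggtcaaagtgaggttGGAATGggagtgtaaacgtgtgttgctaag
Fcrlb, chr1:170912643-170912741: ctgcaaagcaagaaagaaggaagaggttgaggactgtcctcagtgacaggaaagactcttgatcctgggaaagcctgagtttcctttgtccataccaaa
Zdhhc1, chr8:105484428-105484509: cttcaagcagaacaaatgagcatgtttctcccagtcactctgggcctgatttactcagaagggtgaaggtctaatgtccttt
H6pd, chr4:150003131-150003265: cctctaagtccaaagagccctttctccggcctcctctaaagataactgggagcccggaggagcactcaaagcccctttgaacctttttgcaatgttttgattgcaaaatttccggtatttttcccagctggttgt
The first 3 hold motifs and the last 3 hold none. The Agrn stretch is a GC-rich array with 10 matches to the SP motif GGGCGG. The Fstl3 stretch lies in an intron and holds 1 SMAD element (CAGAC, read on the other strand), 1 E-box (CACGTG), 2 SP motifs and 1 TEAD motif (GGAATG). The Sgip1 stretch holds 1 GC-rich SMAD element (GGCGC), 1 KLF motif and 1 TEAD motif. Fcrlb, Zdhhc1 and H6pd have less GC-rich stretches with none of the motifs, although they had some of the largest differences in SMAD3. Sntb1 and Nkd1, also among the largest, are not shown because less than 60 bp of their windows lay outside exons, and Cxxc5 is not shown.

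SMAD3 levels are given as mean normalized reads per site, the inverse log2 of the authors' group means. They have no replicate error, since the table holds no value per replicate. Over the 381 sites the median was 21.2 reads in Dox- (quartiles 14.98 and 29.1) and 6.90 in Dox+ (4.30 and 10.8). The median Dox- minus Dox+ difference was 1.61 on the log2 scale (quartiles 1.35 and 1.90, range 1.00 to 3.71). At the 523 distal sites that were lower, the median difference was 1.96, from 13.6 reads in Dox- to 3.26 in Dox+. Reads are per site and not scaled by width, and the promoter sites were wider (median 1193 bp against 818 bp). The plot of group means shows them as a band below the line of a 2-fold difference.

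**Figure D1:**
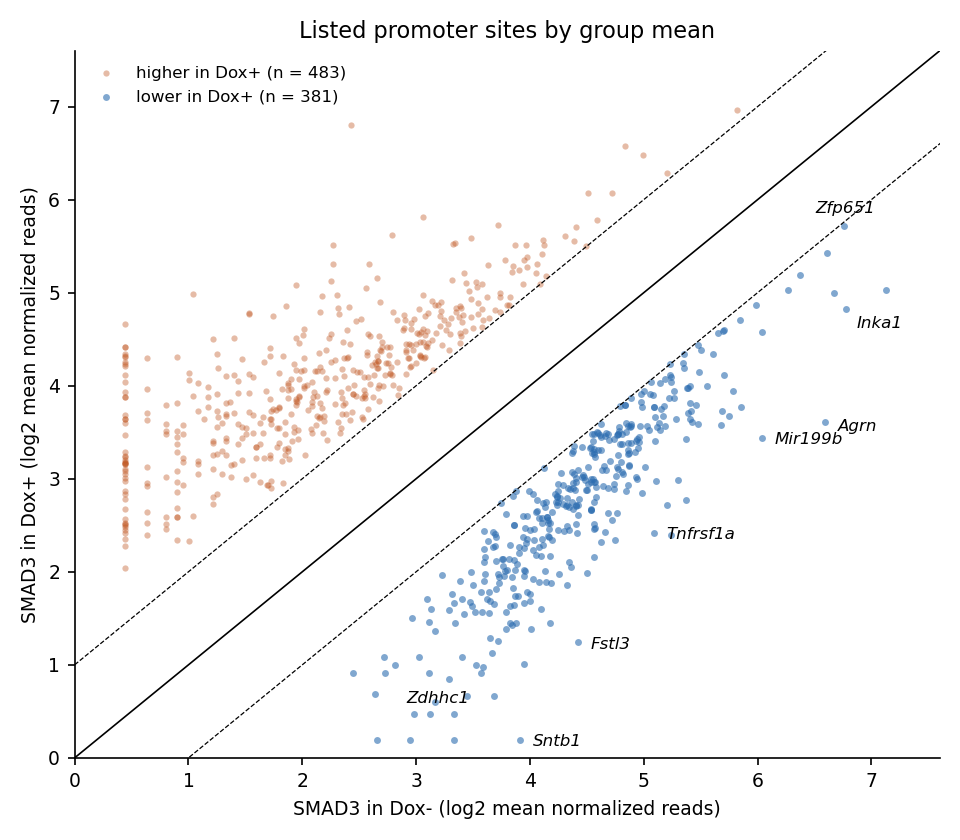
SMAD3 group means (log2 mean normalized reads) at the 381 promoter sites lower in Dox+ (blue) and the 483 higher in Dox+ (orange), with Dox- on the horizontal and Dox+ on the vertical axis. The solid line marks equal means and the dashed lines a log2 difference of 1, beyond which sites could be listed; Sntb1 lies at the lowest Dox+ mean.

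The largest difference was at Sntb1, which encodes β1-syntrophin of the dystrophin complex. Its site (chr15:55906386-55907134, mm10), centered 38 bp upstream of the start, went from 15 reads in Dox- to 1.15 in Dox+, a log2 difference of 3.71. The value of 1.15 is the lowest Dox+ mean in the table, shared by 30 listed sites and 4 of the promoter sites (Sntb1, Fcrlb, H6pd and Dppa2), so those differences rest on the lower limit of the scale. Fstl3, which encodes a secreted inhibitor of activin, had 21.5 reads in Dox- and 2.36 in Dox+ (log2 difference 3.18, chr10:79776333-79778591). Fcrlb, an Fc receptor-like gene, had 10.1 and 1.15 reads (3.14). Zdhhc1, a palmitoyltransferase gene, had 12.8 and 1.58 (3.02). Agrn, which encodes the basement membrane proteoglycan agrin, was both among the largest differences and among the highest levels, with 96.5 reads in Dox- and 12.2 in Dox+ (2.99, chr4:156195716-156199373).

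Of the other sites among the 15 largest differences, several lie at genes of cell signaling. Nkd1, an inhibitor of canonical WNT signaling, had 10.9 reads in Dox- and 1.58 in Dox+, a log2 difference of 2.79. Cxxc5, a CXXC zinc finger gene that responds to BMP and WNT signals, had 37.9 and 5.28 reads (2.84). Tnfrsf1a, the TNF receptor, had 34.0 and 5.36 (2.66). The remaining differences were 2.86 at Sgip1 (an endocytic adaptor), 2.75 at H6pd (a dehydrogenase of the endoplasmic reticulum), 2.73 at Fbrs, 2.67 at Shank3 (a postsynaptic scaffold), 2.63 at a site shared by the starts of Krt80 and Mir1941, and 2.94 and 2.65 at 2 noncoding Gm genes.

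The sites with the most SMAD3 in Dox- were wider than the median site of 1193 bp, and their differences ran from 1.04 to 2.99. Agrn and Mir199b, described with other groups, had the largest of these (2.99 and 2.61). Inka1, a PAK4 inhibitor gene, had 110 reads in Dox- and 28.3 in Dox+, a log2 difference of 1.96, over 7020 bp (chr9:107981647-107988666). Zfp651 had 109 and 52.7 (1.04), so in Dox+ it still held the highest level of all 381 sites. A site over the start of Pdgfra, the PDGF receptor that marks fibroblasts, and of the antisense gene Gm42802, had 102 and 31.9 (1.67). Rac3 had 97.5 and 43.1 (1.18), and Socs1, the inhibitor of cytokine receptor signaling, had 82.9 and 36.6 (1.18). Grin2d, a glutamate receptor gene, had 77.2 and 32.7 (1.24). Cebpd, a C/EBP transcription factor gene of the inflammatory and adipogenic response, had 65.8 and 23.8 (1.47). Across the 381 sites the Dox- level was higher at wider sites (Spearman 0.75, Pearson 0.77) and lower where the difference was larger (Spearman -0.32, Pearson -0.26). These are descriptions across sites of the same libraries, and width, level and difference share the same reads.

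At the edges of the rule, the smallest differences were 1.00 at 2810410L24Rik (37.5 reads in Dox-, 18.8 in Dox+), 1.00 at Xylt1, which starts glycosaminoglycan chains (17.4 and 8.69), 1.00 at Cacna1c (27.7 and 13.8), 1.01 at Slc25a22 (14.7 and 7.32) and 1.01 at Ahnak2 (13.4 and 6.66). The mildest promoter sites on the other side were Nsmaf and Zfp664, both at -1.01. The centers farthest from a start that were still counted included those 914 bp from Gm25044 (17.1 reads in Dox-, 4.48 in Dox+) and 981 bp from Serpinh1 (57.9 and 13.6), and the nearest left out lay 1032 bp from Gm47388 (8.92 reads in Dox-, 2.36 in Dox+), 1041 bp from Ajuba (9.32 and 3.16) and 1058 bp from Gm24514 (30.3 and 7.56).

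The peak lists of single replicates show how far each library carried the sites. The lists differed in length, with 1656, 18588 and 4038 peaks in the Dox- replicates and 420, 23981 and 10374 in the Dox+ replicates, so replicate 1 of each group was the shortest. The Dox- lists overlapped 22.3%, 100% and 63.5% of the 381 sites (mean 61.9% ± 38.9, SD, n = 3), and the Dox+ lists 0%, 85.0% and 36.5% (40.5% ± 42.7, SD, n = 3). Replicates within a group were further apart than the group means, so counting peaks alone did not separate the treatments. Among all tested promoter regions the same lists overlapped 15.8%, 90.1% and 30.8% in Dox- and 3.70%, 98.5% and 76.8% in Dox+. The sites were chosen on these same libraries, so their shares describe the lists and support nothing. Every site was in the list of Dox- replicate 2. In 115 it was the only Dox- list, 205 were in 2 Dox- lists and 61 in all 3. In Dox+, 50 sites were in no list, 199 in 1 and 132 in 2. Without Dox- replicate 2, 233 sites stayed among the regions present in at least 2 of the other lists. With only peaks of a −log10 q-value of at least 2, the mean share was 11% in Dox- and 12.6% in Dox+, so the order of the groups turned.

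**Figure D2:**
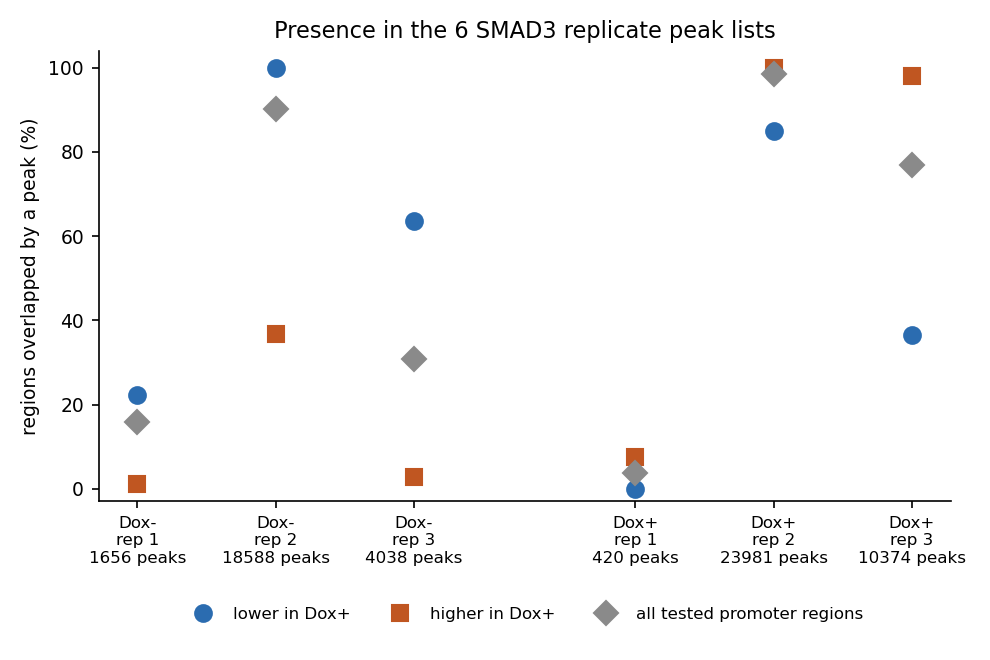
Percent of regions overlapped by at least 1 bp of a SMAD3 peak in each replicate list, with the number of peaks in the list under its name, for promoter sites lower in Dox+ (circles), higher in Dox+ (squares) and all tested promoter regions (diamonds). The lists of replicate 1, the shortest of each group, overlap the fewest of the lower sites, with 22.3% in Dox- and 0% in Dox+.

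Some of the sites still had a called peak in Dox+. In the peaks called on the pooled replicates, 369 sites (96.9%) had a Dox- peak and 174 (45.7%, exact 95% interval 40.6 to 50.8) still had a Dox+ peak. Over all tested promoter regions the shares were 78.4% with a Dox- and 87.3% with a Dox+ peak. At the distal lower sites the Dox+ share was 10.5% (8.02 to 13.5). The pooled peaks come from the same libraries that chose the promoter and distal sites. A lower Dox+ share follows from that choice, so these shares are a description and the intervals test nothing. The 174 sites with a Dox+ peak went from a median of 27.6 reads to 10.7, and the 207 without from 15.7 to 4.55. The Agrn site had called peaks in replicates 2 and 3 of both groups, with fold enrichments over input of 3.99 and 3.31 in Dox- and 3.55 and 2.50 in Dox+. The Sntb1 site had peaks in replicates 2 and 3 of Dox- (2.30 and 1.82) and in none of Dox+. The Inka1 site had 3.16 and 2.09 in the same Dox- replicates and 2.36 and 2.65 in those of Dox+. These folds belong to the strongest peak that overlaps the site, which can be narrower than the site, and at Inka1 the replicate 3 folds went against the group means.

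Genes of the TGF-β pathway itself were counted by role. Of the 21 genes for ligands, receptors and their extracellular modifiers that had a tested promoter region, 4 had a site with lower SMAD3 (19.0%), against 3.94% of all 11433 genes with a tested promoter region, and 0 had a site with higher SMAD3, against 5.12%. Beside Fstl3 they were Ltbp3 and Ltbp1, whose proteins hold latent TGF-β in the matrix, and Tgfbr3, the co-receptor betaglycan. Ltbp3 had 36.8 reads in Dox- and 6.58 in Dox+, a log2 difference of 2.49 (chr19:5740449-5742409). Ltbp1 had 8.98 and 1.51 (2.57, chr17:75178381-75178928). Tgfbr3 had 15.7 and 3.45 (2.19, chr5:107289093-107289654). All 4 were in at least 2 Dox- lists. None of the 5 tested SMAD genes that transmit the signal and none of the 16 tested feedback inhibitors (the group of Smad7, Ski and Skil) had a listed promoter site in either direction, and at a share of 3.94% lists of that size would hold less than 1. This list and those below were chosen with earlier results of these data known, so their shares are descriptions. No test of a list was made, and with lists this short a single gene moves the share by several percentage points.

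Extracellular matrix genes had the highest share of lower sites among the 27 lists that were counted. Of 43 with a tested promoter region, 9 had a lower site (20.9%, against 3.94% of all genes). A higher site was at 1, Thbs3 (2.33%, against 5.12%). Matrix genes outside the list were not counted, such as Col2a1 and Mmp11 with higher sites and Serpinh1 with a lower one. The counts thus depend on which genes the list held. The fibrillar collagen genes Col1a1 and Col1a2 and the fibronectin gene Fn1 had the most SMAD3. Col1a1 had 51.7 reads in Dox- and 24.1 in Dox+, a log2 difference of 1.10, at a center 664 bp into the gene (chr11:94936004-94937773). The Col1a2 site, which it shares with the start of Gm43921, had 42.7 and 13.2 (1.69, chr6:4504489-4507569). The Fn1 site, which it shares with the start of Apol7d, had 39.0 and 12.4 (1.65, chr1:71652616-71654496). Col1a1 was in 5 of the 6 replicate lists, missing from Dox+ replicate 1 only.

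The other 6 matrix genes were Mfap4, Mmp2, Emilin1, Plod1, Col16a1 and Bgn. Mfap4 (a microfibril protein) had 27.3 reads in Dox- and 6.20 in Dox+, Mmp2 (gelatinase A) 26.7 and 7.4, Emilin1 (an elastic fiber glycoprotein) 21.9 and 10.2, Plod1 (a lysyl hydroxylase of collagen) 20.2 and 7.48, Col16a1 16.6 and 6.23, and Bgn (the proteoglycan biglycan) 11.3 and 3.62. Their log2 differences ran from 1.11 at Emilin1 to 2.14 at Mfap4. Mmp2, Emilin1 and Bgn were in only 1 Dox- list, and 6 of the 9 genes were in at least 2. Of the 17 tested genes on a short list of classical SMAD3 targets in fibroblasts, 3 had a lower site, and they were again Col1a1, Col1a2 and Fn1.

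**Figure D3:**
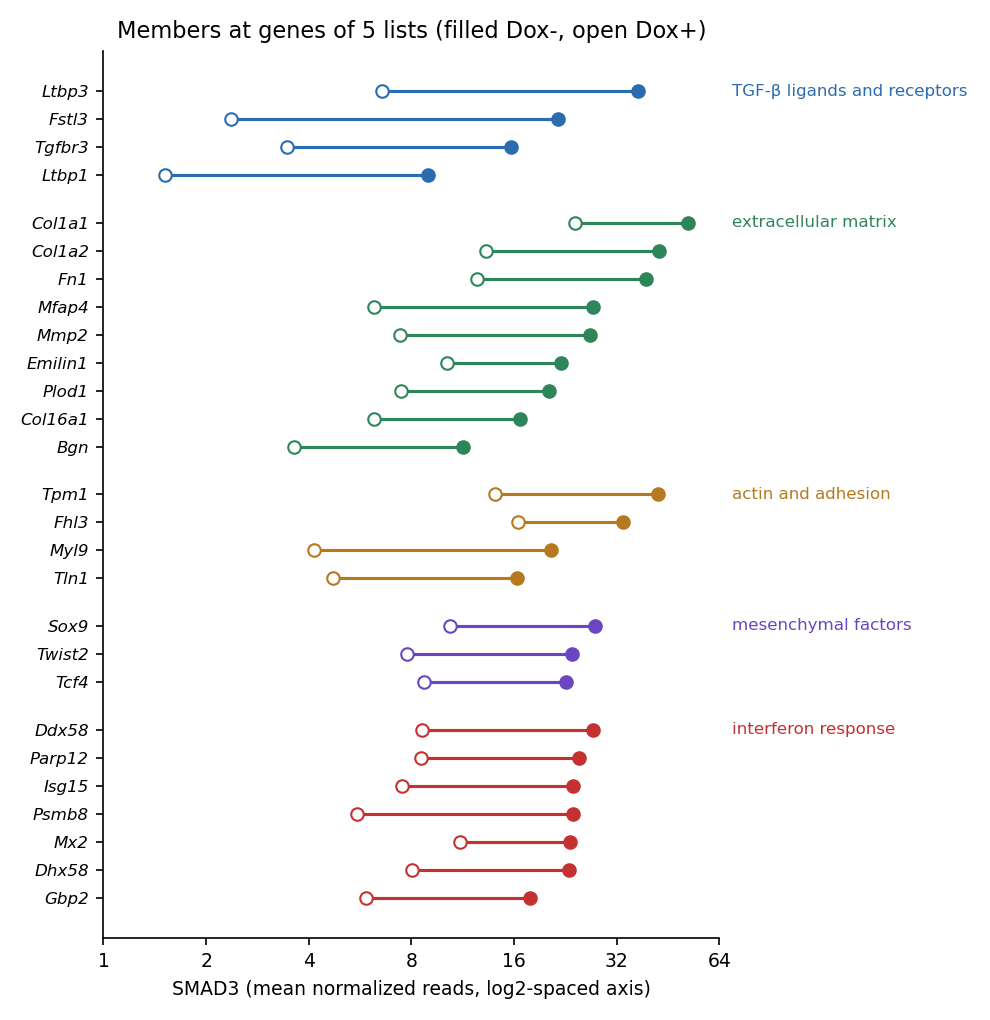
SMAD3 (mean normalized reads, log2-spaced axis) at promoter sites of genes in 5 lists, with filled points for Dox-, open points for Dox+ and a line between them. The sites of Fstl3 and Ltbp1 reach the lowest Dox+ levels shown (2.36 and 1.51), while Col1a1 keeps 24.1 of 51.7 reads.

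Cytoskeletal and mesenchymal genes were counted next. Of 45 tested genes of actin and focal adhesions, 4 had a lower site (8.89%, against 3.94% of all genes). A higher site was at 1, Bcar1 (2.22%, against 5.12%). Genes outside the list were not counted in either direction, and Limk1, Pak1, Ezr and Itgb4 among them had higher sites. Tpm1 (tropomyosin) had 42.4 reads in Dox- and 14.1 in Dox+, Fhl3 33.4 and 16.4, Myl9 (smooth muscle myosin light chain) 20.5 and 4.15, and Tln1 (talin) 16.3 and 4.71. Of 27 tested mesenchymal transcription factors, 3 had a lower site (11.1%, against the same 3.94%) and 0 a higher site. These shares rest on few genes. Sox9 had 27.6 and 10.4 reads, Twist2 23.6 and 7.79, and Tcf4 22.7 and 8.71. Only Twist2 was in more than 1 Dox- list. Cebpd was the single lower gene of 11 RUNX, C/EBP and NFI factors, where Nfix had a higher site.

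Interferon response genes had a share close to that of the matrix genes. Of 34 tested, 7 had a lower site (20.6%, against 3.94% of all genes) and 0 a higher site (against 5.12%). RNA sensors were among them. Ddx58, which encodes RIG-I, had 27.3 reads in Dox- and 8.62 in Dox+ (log2 difference 1.66, chr4:40238765-40240333), and Dhx58, which encodes LGP2, had 23.2 and 8.01 (1.53, chr11:100702988-100704259). The antiviral ubiquitin-like gene Isg15 had 23.9 and 7.49 (1.67, chr4:156200372-156201247). Parp12 had 24.8 and 8.54, Psmb8 (an immunoproteasome subunit) 23.8 and 5.53, Gbp2 (a guanylate-binding GTPase) 17.9 and 5.89, and Mx2 23.3 and 11.1. Their levels lay in a narrow range, from 17.9 to 27.3 reads in Dox- and from 5.53 to 11.1 in Dox+. Parp12 and Mx2 were in a single Dox- list and the other 5 in at least 2. The Isg15, Mx2 and Parp12 sites also held a match to the interferon-stimulated response element.

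The remaining lists had lower shares than the matrix and interferon lists. Over all genes with a tested promoter region, 3.94% had a lower and 5.12% a higher site. A single lower site each was found for YAP, TAZ and TEAD pathway genes (Lats1, of 19 tested, at a site shared with Pcmt1), the pluripotency network (Dppa2, of 13), p53, arrest and senescence genes (Mdm4, of 29) and respiratory chain subunits (Ndufb2, of 62), whereas higher sites numbered 3, 1, 2 and 5 in these lists. Chromatin regulators had 2 of 79 (Dnmt3a and Hdac2), proteasome subunits 2 of 39 (Psmb8 and Psmd5) and Zfp zinc finger genes 5 of 229 (Zfp219, Zfp574, Zfp629, Zfp651 and Zfp775). No lower site was found for 72 ribosomal protein genes, 64 mitochondrial ribosomal protein genes, 53 splicing factor genes, 40 cell cycle and replication genes, 40 replication-dependent histone genes, 16 Hox genes, 14 KLF and SP genes, 12 AP-1 genes, 10 small nucleolar RNA host genes, 9 genes of MYC, MAX and their partners or 8 epithelial genes. These had higher sites at 3, 5, 1, 2, 7, 1, 1, 0, 0, 2 and 2 genes. At a share of 3.94% a list of 16 genes or fewer would hold less than 1, so no lower site there says little. The lower shares of the YAP (5.26%), pluripotency (7.69%) and proteasome (5.13%) lists were above 3.94% but rest on 1 or 2 genes each.

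**Figure D4:**
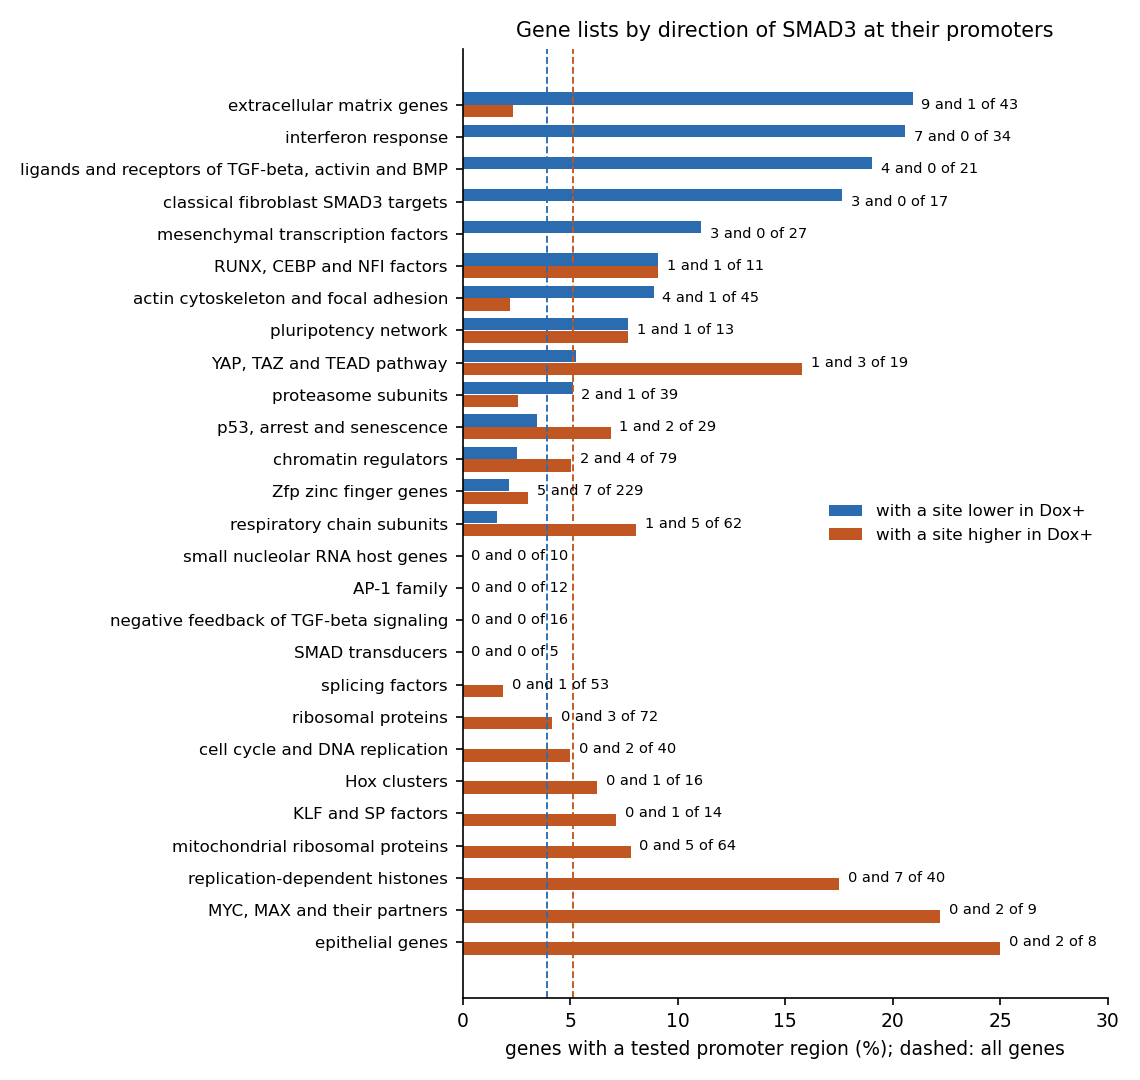
Percent of the genes with a tested promoter region that have a site with lower (blue) or higher (orange) SMAD3 in Dox+, for 27 gene lists, with the counts of lower and higher genes beside each pair of bars. Dashed lines mark all genes (3.94% lower and 5.12% higher). Extracellular matrix (20.9%) and interferon response (20.6%) have the longest blue bars. The lists were chosen with earlier results of these data known, so the bars are descriptions.

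Genes outside the lists were named after their values were seen. They include Serpinh1, the collagen chaperone (57.9 reads in Dox- and 13.6 in Dox+), and Wnt5a, a noncanonical WNT ligand (41.3 and 10.8). Gli2, a transcription factor of hedgehog signaling, had 28.1 and 8.43, and Igf2, a growth factor, had 19.6 and 6.62. Further ones were the ADAMTS protease genes Adamts9 (22.7 and 3.96), Adamts10 (22.4 and 7.94) and Adamts14 (14.5 and 5.67). Receptors and effectors of cytokines were also present. Ifngr2 had 25.7 reads in Dox- and 6.19 in Dox+, Il4ra 20.3 and 6.50, Osmr 37.7 and 17.1, and Ltbr 23.2 and 6.35. The cytokine gene Il6 had 15.4 and 3.87, and the adhesion genes Vcam1 and Icam1 had 18.1 and 5.77, and 12.1 and 4.74. Il6, Vcam1, Icam1, Il4ra, Gli2 and Adamts14 were in a single Dox- list. Higher promoter sites also lay at genes of such kinds. Among them were Il11 (2.32 reads in Dox- and 22.6 in Dox+), Pdgfb (2.89 and 27.4) and Cish (6.17 and 17.3). Genes of these kinds were not counted in either direction, so those named here show no share or trend.

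MicroRNA genes were a further group named after the values were seen. The sites lay within 1000 bp of the hairpin start of 11 of them, and RefSeq (GRCm38.p6) gave mature sequences for 10. The microRNA genes with a tested promoter region were not counted, so these 11 cannot be set against the 3.94% of all genes. Higher promoter sites also lay at microRNA genes, among them Mir1191b and Gm44346. A hairpin start is a processing site and not the start of the primary transcript. The sequences of 2 pairs are shown because their seeds (bases 2 to 8, in capitals) are shared.
miR-199b-3p: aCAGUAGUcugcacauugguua
miR-199a-3p: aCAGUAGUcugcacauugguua
miR-34b-3p: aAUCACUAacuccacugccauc
miR-34c-3p: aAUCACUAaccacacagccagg
The Mir199b and Mir199a-1 hairpins lie on different chromosomes and give 3p arms of the same sequence, with the seed CAGUAGU. Their sites had 65.9 reads in Dox- and 10.8 in Dox+ (log2 difference 2.61, chr2:32317347-32320412), and 23.6 and 5.69 (2.05, chr9:21496489-21497419). Mir34b and Mir34c, which are targets of p53, share the seed AUCACUA in their 3p arms and a single site with 22.5 and 7.36 reads (1.61, chr9:51103494-51104351). The others were Mir193a (16.9 and 5.97), Mir574 (29.2 and 8.89), Mir351 (48.8 and 20.3), Mir1903 at the Nrp1 site (52.3 and 17.3), Mir1941, Gm23363 at the Mir199b site, and a gene without a sequence in the table.

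Several sites lay next to each other. Within 10000 bp of a neighbor there were 15 sites, in 6 groups. No such count was made for all tested promoter regions, so it does not show whether the sites cluster. The most compact group of 3 sites covered 8060 bp on chromosome 4, at Agrn, Isg15 and AW011738 (chr4:156195716-156203775). A matrix gene with a log2 difference of 2.99 thus sat beside an interferon gene with 1.67. Other groups of 3 lay at Ost4, Emilin1 and Khk on chromosome 5 and at Dmwd, Dmpk and Six5 on chromosome 7. Ece1, Frmd4a, Pcmt1, Sh3bp2 and Tbc1d1 had a lower site and a higher site at different starts. In Tbc1d1 the sites were 68932 bp apart, with 12.2 reads in Dox- and 3.94 in Dox+ at the lower and 10.8 and 34.4 at the higher. In Pcmt1 they were 17767 bp apart, with 40.6 and 18.9 reads at the lower and 13.0 and 28.1 at the higher.

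OCT4 was not found on the sites. The merged OCT4 list overlapped 0 of 381, which allows a share of up to 0.787%, and so did each of the OCT4 replicate lists (n = 3). Of all tested promoter regions 50 of 9355 had a merged OCT4 peak (0.534%, exact 95% interval 0.397 to 0.704), a share that 381 sites could not tell from 0. Of the promoter sites with higher SMAD3 in Dox+, 17 of 483 had such a peak (3.52%, 2.06 to 5.58), and that interval lies above the limit at the lower sites. The nearest OCT4 peak within 5000 bp was 502 bp from the Dok5 site and was the only one. In the authors' second table, of OCT4 against SMAD3 in Dox+, 2 sites overlapped an entry with higher OCT4 (Acadl and Ptk7) and 2 an entry with higher SMAD3 (Tpm1 and Psmd5), against 1.70% and 6.19% of all tested promoter regions. That table uses the same Dox+ SMAD3 libraries that chose the sites, so it is a description.

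The sites differed from the average tested promoter in base composition. CpG islands, where cytosine and guanine are frequent and CpG is not depleted, mark the promoters of widely expressed genes, while tissue-restricted genes often lack them. The median ratio of observed to expected CpG in the central 200 bp was 0.65 at the lower sites (quartiles 0.357 and 0.855), 0.81 over all tested promoter regions (0.592 and 0.958), 0.71 at the higher promoter sites and 0.22 at the lower distal sites. A ratio of at least 0.6, the usual minimum for a CpG island, was reached by 206 sites (54.1%, exact 95% interval 48.9 to 59.2) against 74.3% of all tested promoter regions (73.4 to 75.2) and 58.4% of the higher promoter sites (53.8 to 62.8). The lower and higher promoter sites were thus not distinguishable in this share, and both lay under the average. Median GC content was 63% against 65% in all tested promoter regions. Within the 381 sites, those under 0.6 had a median log2 difference of 1.68 and those at or above it 1.53, a gap smaller than the spread within each class (quartiles 1.47 and 2.04, and 1.30 and 1.79).

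Position and gene type were compared in the same way. The centers lay a median of 154 bp from the nearest start, against 106 bp for all tested promoter regions, and 40.9% lay within 100 bp (36.0 to 46.1) against 48.4% (47.4 to 49.4). The higher promoter sites had similar values, with a median of 134 bp and 41.2% within 100 bp. They were on the downstream side in 56.2%, much like the 55.2% of all regions. The center was in an exon at 166 sites, in an intron at 137 and between genes at 78. The intron share of 36.0% (31.1 to 41.0) was above the 25.7% of all regions (24.8 to 26.6), and the higher sites had 29.8% (25.8 to 34.1). The nearest gene was protein-coding at 328 sites (86.1%) against 90.9% of all tested promoter regions and 88.0% of the higher sites, and the rest included 20 lincRNA and 6 miRNA genes. Protein-coding starts on both strands, the arrangement of bidirectional housekeeping promoters, were found at 19 sites (4.99%, 3.03 to 7.68) against 10.5% (9.85 to 11.1), and at 7.66% of the higher sites (5.45 to 10.4), so none of these traits was shown to be particular to the lower sites. Intervals cover counting error only, since neighboring sites and the libraries behind them are shared.

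Of the motifs found in at least 10 sites, the ETS motif CCGGAAG had the share furthest, as a ratio, from that of all tested promoter regions. ETS factors such as GABPA bind it at the CpG-island promoters of housekeeping genes. It lay in the central 200 bp of 10 sites (2.62%, exact 95% interval 1.27 to 4.77), of 10.2% of all tested promoter regions (9.61 to 10.9) and of 8.28% of the higher promoter sites (5.98 to 11.1). With the CpG ratio at least 0.6 the shares were 3.40% (1.38 to 6.88) and 12.3% (11.5 to 13.1). Within 100 bp of a start they were 3.85% (1.42 to 8.18) and 15.8% (14.8 to 16.9). The share was thus also lower in both of these subsets. With the ratio under 0.6 the shares were 1.71% (0.355 to 4.93) and 4.20% (3.43 to 5.08), with overlapping intervals. Without subsets, in 300 bp in place of 200 bp, the shares were 4.20% and 14.1%. Over the whole site they were 19.4% and 32.5%, which are closer as a ratio. The 10 sites were at 2810410L24Rik, Abcd2, Cops9, Dse, Gm24109, Hhipl1, Hpn, Mdm4, Scarf2 and Scyl3. The NRF1 motif GCGCATGCG, also of housekeeping promoters, was at 0 sites, which allows up to 0.787%, against 1.36% (1.13 to 1.61). With the CpG ratio at least 0.6 it was at 0 of 206 sites (exact upper limit 1.77%) against 1.78% (1.49 to 2.12). Within 100 bp of a start it was at 0 of 156 (exact upper limit 2.34%) against 2.30% (1.88 to 2.78). Intervals overlapped in each of these subsets.

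Motifs of SMAD3 itself gave no single direction. The SMAD element CAGAC was in 36.5% of the sites (31.6 to 41.5) and 33.4% of all tested promoter regions (32.5 to 34.4), and in 37.9% of the higher sites. The GC-rich element GGCGC was in 47.2% (42.1 to 52.4) against 58.6% (57.6 to 59.6), and in 48.7% of the higher sites (44.1 to 53.2). Against all regions, the shares were 74.8% and 71.3% within CpG-rich windows and 14.9% and 21.8% within CpG-poor ones. Within 100 bp of a start they were 60.3% and 67.7%, and intervals overlapped in each of these subsets. The palindrome GTCTAGAC was in 3 sites, at Cops9, Dppa2 and Gm32585 (0.787%, 0.163 to 2.28), and in 0.192% of all regions (0.114 to 0.304), with overlapping intervals.

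Motifs of other factors lay on both sides of the background. The TEAD motif GGAATG was in 10.8% of the sites (7.83 to 14.3) and 6.96% of all regions (6.45 to 7.49), intervals that did not overlap, but they did overlap at CpG-rich windows (6.31% and 5.67%) and at CpG-poor ones (16.0%, 10.9 to 22.3, and 10.7%, 9.47 to 12.0). The RUNX motif TGTGGT was in 9.45% and 6.84%, the AP-1 motif TGANTCA in 4.20% and 2.80%, and the interferon-stimulated response element in 3.15% and 1.72%. Intervals overlapped for each of these motifs, and AP-1 was in 4.14% of the higher sites. The SP motif GGGCGG was in 43.0% (38 to 48.2) and 49.7% (48.7 to 50.8), without overlap, and in 40.2% of the higher sites. The SP shares were 64.6% and 59.3% within CpG-rich windows and 17.7% and 22.1% within CpG-poor ones. Within 100 bp of a start they were 65.4% and 61.4%, and intervals overlapped in each of these subsets. Lower shares than over all regions, but with overlapping intervals, were found for the CCAAT box (14.4% and 19.0%) and the YY1 motif AAGATGG (2.36% and 4.81%). The same held for the cAMP response element TGACGTCA (0.525%, which is 2 sites, and 1.52%). The KLF motif GGGNGTGG was in 12.1% and 13.1%, and the E-box CACGTG in 4.46% and 5.06%. For motifs of the reprogramming factors, the octamer ATGCAAAT was in 2 sites (0.525%) against 0.492%, and the SOX motif ACAAT in 12.3% against 10.7%. Some motifs overlap in their letters, as SP and KLF motifs do. A match only says that the letters are present, and a missing match says nothing of the factor.

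**Figure D5:**
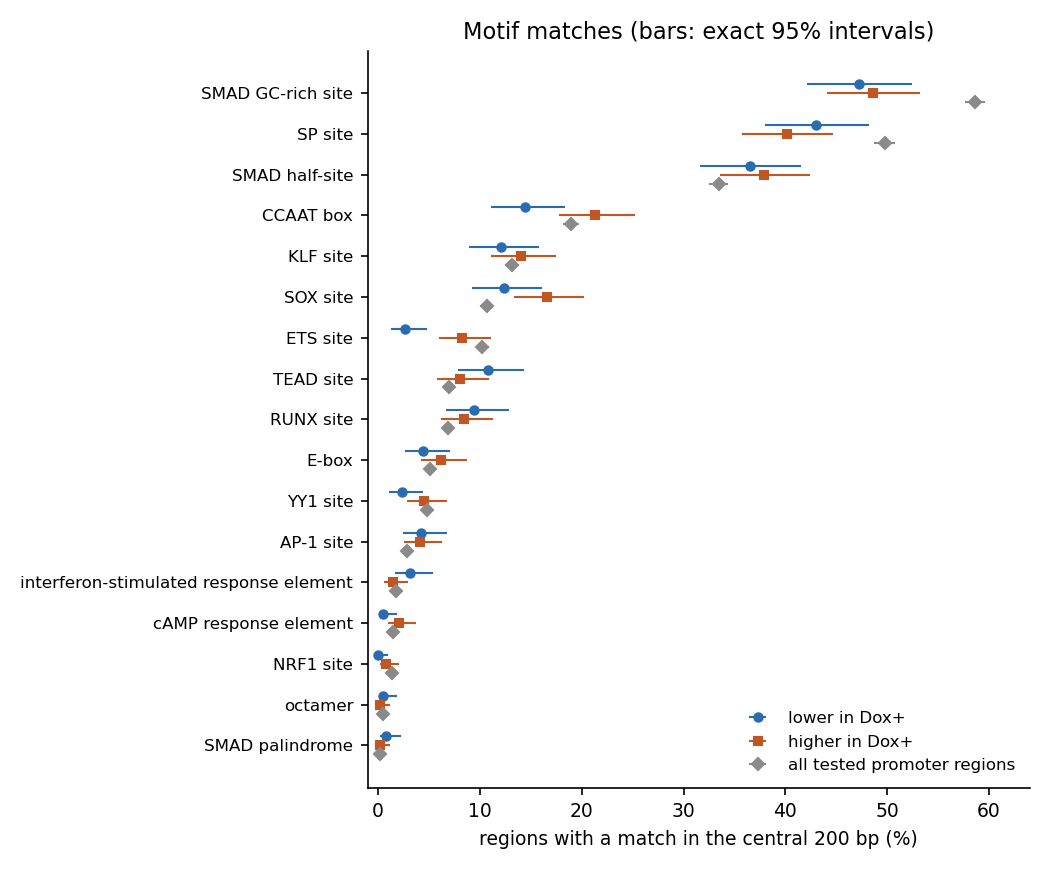
Percent of regions with a match to each of 17 motifs within 100 bp of the center, on either strand, for promoter sites lower in Dox+ (circles), higher in Dox+ (squares) and all tested promoter regions (diamonds), with exact 95% intervals. The ETS motif is in 2.62% of the lower sites against 10.2% of all tested promoter regions, and the SMAD element CAGAC is in 36.5% against 33.4%, with overlapping intervals.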

How the data were processed

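ChIP-seq of SMAD3 and OCT4 (3 replicates per group) was used as the authors deposited it. Per the study's methods, reads were trimmed, aligned to mm10 with Bowtie 2, stripped of duplicates, of reads with a mapping quality under 40 and of blacklisted regions, and peaks were called with MACS2 against pooled inputs, per replicate and on merged replicates (SMAD3 broad, cutoff 0.1; OCT4 narrow, q-value 0.01). The deposited lists hold, for every peak, its enrichment over input as a fold (a linear ratio) and its −log10 q-value. The deposited DiffBind tables give log2 mean concentrations per group and are limited to a false discovery rate of 0.1 or less and a log2 fold of 1 or more in either direction. The authors' folds and p-values in them, the gapped peaks and the signal matrices at OCT4 peaks were not used. Total reads per library were not used here, so whether the unequal list lengths reflect depth was not tested.

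The members and gene lists were chosen with earlier results of these data known. Tested regions were rebuilt by joining overlapping peaks of the 6 SMAD3 lists and keeping those in at least 2 lists. All 2080 listed sites equalled a rebuilt region. Starts were those of GENCODE M21, and overlap meant 1 shared bp. A gene was counted when a start lay within 1000 bp of a site's center. A site was named by its nearest start, and named sites were the 15 with the largest differences, the 10 with the highest Dox- means, the 5 smallest differences, the sites nearest each limit and all genes of the 27 lists. A site that the rule names is not reported here. Planned windows of 200 bp for printing were trimmed to bases outside exons, and stretches under 60 bp were not printed. No test was run, since the sites were chosen on these SMAD3 values. Shares have exact (Clopper-Pearson) 95% intervals, and a count of 0 is given as the share of 3 counts. Overlap, joining, motif and start steps were tested on simulated data. Python 3.11.15 with numpy 2.4.6, scipy 1.17.1, pandas 2.3.3, pysam 0.24.0 and matplotlib 3.10.9 was used. Alternatives were other start windows, protein-coding starts only, other list minimums, single lists left out, stricter peaks, other sequence windows and OCT4 distances, and, added after the data were seen, motif shares within CpG classes and near starts and gene-list counts of sites in at least 2 Dox- lists.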

Additional observations from a re-analysis of the deposited data

How the results depend on the processing

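The number of sites was 331 with a 500 bp window, 428 with 2000 bp and 329 with protein-coding starts only. Their share of tested promoter regions was 3.58% when regions had to be in at least 3 of the 6 lists, and ranged from 3.07% to 4.47% when single SMAD3 replicate lists were left out, with the lowest value without Dox- replicate 2, which left 233 of the sites in the tested set. The mean share of sites with a Dox- peak was 11% when only peaks with a −log10 q-value of at least 2 counted, against 12.6% in Dox+, so the order of the groups turned at that limit. Leaving out single lists moved the means from 42.9% to 81.8% in Dox- and from 18.2% to 60.8% in Dox+. OCT4 overlap, base composition and the downstream share moved by less than their spread under each alternative tried for them. Widening the sequence window raised motif shares, with 7 of 17 motifs outside their 200 bp interval at 300 bp and 17 of 17 over the whole site. Counting only sites in at least 2 Dox- lists left the matrix genes at 6 and the interferon genes at 5, reduced the mesenchymal factors to 1 and removed the p53 list's gene. No paired analysis was possible because no test was made and the table holds group means only. The group means rest on 3 libraries of unequal list length per group, and SMAD3 levels near the lowest mean of 1.15 reads cannot show how much was lost.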
